A study of Mus musculus with 25 samples.

Results

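The genes described here were 10 genes of glycolysis and of the hypoxia response, chosen by symbol: the glucose transporter gene Slc2a1, the glycolytic enzyme genes Hk2, Aldoa, Tpi1, Gapdh, Pgk1, Pkm and Ldha, the regulator gene Pfkfb3, and the transcription factor gene Hif1a. All 10 were found among the 43411 genes of the table, and 9 had counts. RNA was sequenced from microglia, the resident macrophages of the brain, sorted as CD11b+ CD45med cells from brain without cerebellum and olfactory bulbs. The mice carried a floxed Bin1 gene, which codes for a membrane-remodelling protein and is a risk gene for late-onset Alzheimer's disease, and a Thy1-Cre transgene that is active in forebrain excitatory neurons. Counts were available for 23 mice of 3 months of age: 10 Bin1flox/flox Thy1-Cre+ mice (Homo-cKO, 5 females and 5 males), 7 Bin1flox/wt Thy1-Cre+ mice (Het-cKO, 4 females and 3 males) and 6 Bin1flox/wt Thy1-Cre- littermates (WT, 2 females and 4 males), so that every mouse carried at least 1 floxed allele. The strain was labelled as B6.129S6-Bin1tm2Gcp/J crossed with FVB/N-Tg(Thy1-cre)1Vln/J.

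Glycolysis splits 1 glucose into 2 pyruvate in the cytosol, and lactate dehydrogenase then turns pyruvate into lactate. When oxygen is low, the HIF-1 alpha protein escapes degradation, pairs with ARNT and raises the transcription of glucose transporters and of most glycolytic enzymes. HIF-1 alpha is controlled mainly at the level of the protein, which RNA counts do not measure. In microglia, as in other macrophages, a shift towards glycolysis is known to accompany activation by inflammatory stimuli.

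The libraries held 10812969 to 16734846 counts (median 13477985), and 15865 to 17432 genes had a count. Levels are given as CPM, that is counts per 1000000 counts of the library, scaled by the trimmed mean of M values. All 10 microglial marker genes were detected, with a summed level of 66828 to 94634 CPM in WT (median 75985), 61908 to 82946 in Het-cKO (median 73920) and 58526 to 68676 in Homo-cKO (median 60647). Bin1 itself, which Thy1-Cre was to delete in neurons, was at 600 to 814 CPM in WT microglia (median 689), 629 to 747 CPM in Het-cKO (median 691) and 327.6 to 673 CPM in Homo-cKO (median 469). Its log2 difference between Homo-cKO and WT in these sorted cells was -0.60 (SE 0.12, adjusted p = 0.0017, edgeR). Every WT and Het-cKO mouse had an animal number starting with 02, and every Homo-cKO mouse one starting with 03 or 04, so genotype and range of animal numbers cannot be told apart. Fos, an immediate-early gene, was at 824 to 1459 CPM in 4 Homo-cKO mice (F1, F2, M1 and M2), at 0.363 to 6.999 CPM in the other 6 and at most 1.73 CPM in WT and Het-cKO mice. The tests of the genes and lists below that involve Homo-cKO were therefore also run without those 4 mice. Of 12735 genes tested then, 1062 passed (adjusted p below 0.05, edgeR) against WT and 1898 against Het-cKO. With all 23 mice these counts were 1645 and 2936 of 12908, so fewer genes of the whole table passed as well. All 4 mice with high Fos had animal numbers starting with 03, so the sets of Homo-cKO mice by number and by Fos overlap and are not separate checks. Nothing in the labels pairs mice of different genotypes.

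Sequences before a RefSeq transcript start of 2 of the genes are shown because these 2 gave the clearest differences between genotypes below. They come from the RefSeq promoter table of GRCm38.p6, which matched all 10 genes with 15 windows, each from 250 bases before to 50 bases after a transcript start. Capitals mark ACGTG on either strand, the most common form of the core that HIF-1 binds. The Slc2a1 stretch is chr4:119108495-119108720 on the plus strand and ends 24 bases before the RefSeq start. The Hif1a stretch is chr12:73907617-73907866 on the plus strand and ends at the RefSeq start, which lies inside the gene as GENCODE annotates it, 6492 bases from the start of that gene model.
Slc2a1: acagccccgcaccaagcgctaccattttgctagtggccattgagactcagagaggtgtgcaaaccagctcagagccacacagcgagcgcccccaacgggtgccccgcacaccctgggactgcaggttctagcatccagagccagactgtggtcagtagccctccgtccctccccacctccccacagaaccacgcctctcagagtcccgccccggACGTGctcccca
Hif1a: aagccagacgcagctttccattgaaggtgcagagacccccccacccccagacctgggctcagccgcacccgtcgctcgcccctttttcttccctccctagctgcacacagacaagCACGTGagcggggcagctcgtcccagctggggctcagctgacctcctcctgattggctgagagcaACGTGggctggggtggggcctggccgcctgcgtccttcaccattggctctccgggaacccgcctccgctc

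The Slc2a1 stretch held 1 ACGTG, close to its end. The Hif1a stretch held 2, of which the first is the palindrome CACGTG, an E-box as well, and was counted once. ACGTG was found in at least 1 window of 9 of the 10 genes, Tpi1 being the exception, and in 11 of their 15 windows. Among all 32851 windows of the table, 19.6% held it, as did 21.8% of the genes in at least 1 window. The match describes the letters of these windows and says nothing about binding in these cells.

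Compared per length, as CPM per kilobase of the longest principal transcript (RPKM), the 9 genes with counts spanned about an order of magnitude. Aldoa, the aldolase of most tissues, had the highest level, with a median of 246 RPKM over the 23 mice and a range of 213 to 287. Ldha (median 131 RPKM, 115 to 162) and Pkm (128 RPKM, 117 to 157) followed and overlapped each other over most of their ranges, as did Gapdh (75.1 RPKM, 67.9 to 104) and Tpi1 (66.1 RPKM, 53.8 to 84.9). Hif1a had a median of 35.4 RPKM (24.9 to 42.8), Hk2 27.2 (22.99 to 33.6) and Pgk1 25.9 (17.4 to 34.6). Slc2a1 ran from 16.6 to 35.5 RPKM, and the ranges of these last 4 genes overlapped. Its place among them differed between genotypes. In Homo-cKO its mean of 20.5 RPKM was the lowest of the 9, while in WT its mean of 30.03 stood above those of Pgk1 (28.6) and Hk2 (26.5), and in Het-cKO its mean of 28.9 was level with that of Hk2 (28.8) and above that of Pgk1 (23.3). The Pgk1 values leave out counts placed on its processed copies, which held 24.6% of the joint counts. The order of Slc2a1 and Pgk1 in WT and Het-cKO is therefore uncertain. Together the 10 genes took 0.139 to 0.182% of all counts of a library.

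Slc2a1 codes for GLUT1, the transporter that carries glucose across the plasma membrane, and was the gene of the 10 that differed most between genotypes. The gene lies at chr4:119108711-119137983 on the plus strand of GRCm38. In the WT mice its level was 82.3 CPM in F1, 110 in F2, 116 in M1, 78.3 in M2, 101 in M3 and 99.7 in M4. In the 10 Homo-cKO mice it ran from 54.3 CPM in M5 to 78.2 in F5, with a median of 68.5 CPM. All 10 Homo-cKO mice thus lay below all 6 WT mice, although the highest Homo-cKO mouse and the lowest WT mouse were nearly level. How many of all genes separate the groups as far was not counted, here or for the genes below. The mean was 66.9 ± 8.36 CPM in Homo-cKO (SD, n = 10) and 97.9 ± 14.9 CPM in WT (SD, n = 6). The level fell by 0.58 on the log2 scale (SE 0.10, 95% CI -0.78 to -0.38, adjusted p = 0.00055, edgeR's quasi-likelihood test, p adjusted by Benjamini and Hochberg's method over all 12908 genes). This is a level 1.49-fold lower, just short of the fold change of 1.5 that the study asked of a differentially expressed gene. By p, Slc2a1 was number 75 of the 12908 genes.

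The Het-cKO mice did not share this lower level. Slc2a1 was at 65.3 CPM in the Het-cKO male M1 and between 89.2 and 107 CPM in the other 6, with a mean of 94.3 ± 14.3 CPM (SD, n = 7). Of the Homo-cKO mice, 3 lay below all 7 Het-cKO mice and none above the Het-cKO median. Against Het-cKO the Homo-cKO level fell by 0.48 on the log2 scale (SE 0.09, adjusted p = 0.00085, edgeR). Het-cKO differed from WT by -0.10 on the log2 scale (SE 0.11, 95% CI -0.32 to 0.12, adjusted p = 0.86, edgeR). Leaving out Het-cKO M1, the log2 difference from Het-cKO was -0.55.

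The lower Slc2a1 level was present in both sexes as a value. In females, with 2 WT mice, the log2 difference between Homo-cKO and WT was -0.45 (SE 0.15, adjusted p = 0.17, edgeR, where 0.457% of all genes passed), and in males it was -0.64 (SE 0.12, adjusted p = 0.0043, edgeR, where 6.06% of all genes passed). The difference between the sexes was 0.18 on the log2 scale (SE 0.20, adjusted p = 1.00, edgeR), and 0% of all genes passed that test, with none by limma-voom among the 9. With the 6 Homo-cKO mice of animal numbers starting with 03 alone, the log2 difference from WT was -0.54 (adjusted p = 0.0039, edgeR), and with the 4 starting with 04 alone it was -0.64 (adjusted p = 0.0052, edgeR). Without the 4 Homo-cKO mice with high Fos it was -0.60 (adjusted p = 0.0021, edgeR).

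Slc2a1 is also a gene of brain endothelial cells, so the endothelial and pericyte markers were read beside it. Their summed level was 50.4 to 94.2 CPM in WT, 60.4 to 85.5 CPM in Het-cKO and 37.0 to 64.1 CPM in Homo-cKO. Most of that sum was Pecam1, which microglia and other blood cells also express, at 54.3 ± 10.4 CPM in WT (SD, n = 6) and 39.5 ± 9.59 CPM in Homo-cKO (SD, n = 10). Of the 10 markers 4 passed the filter on low counts. Both Pecam1 (log2 fold change -0.49, SE 0.14, adjusted p = 0.021, edgeR) and the pericyte gene Pdgfrb (-2.24, SE 0.57, adjusted p = 0.011, edgeR) fell in Homo-cKO against WT. The other 2 tested did not pass, where 12.7% of all genes did, and 1 of the 4 had a log2 fold change above 0, at 0.95. Without the 4 mice with high Fos, Pecam1 still fell (-0.72, adjusted p = 0.0034, edgeR) and Pdgfrb did not pass (-1.74, adjusted p = 0.067, edgeR). Of the defining endothelial genes, Cldn5 and Tek were listed at 0 in every mouse. Each was the only gene at 0 between neighbours in the table that had counts, but in these files a listed 0 can also be a gene without a measurement. The genes Ly6c1, Slco1a4 and Abcb1a had a median of 0 CPM in every genotype. The summed level of the microglial markers was lower in Homo-cKO as well. The part of these cells in the Slc2a1 result was not tested. In bulk RNA, fewer cells of a type and less RNA per cell cannot be told apart.

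**Figure D1:**
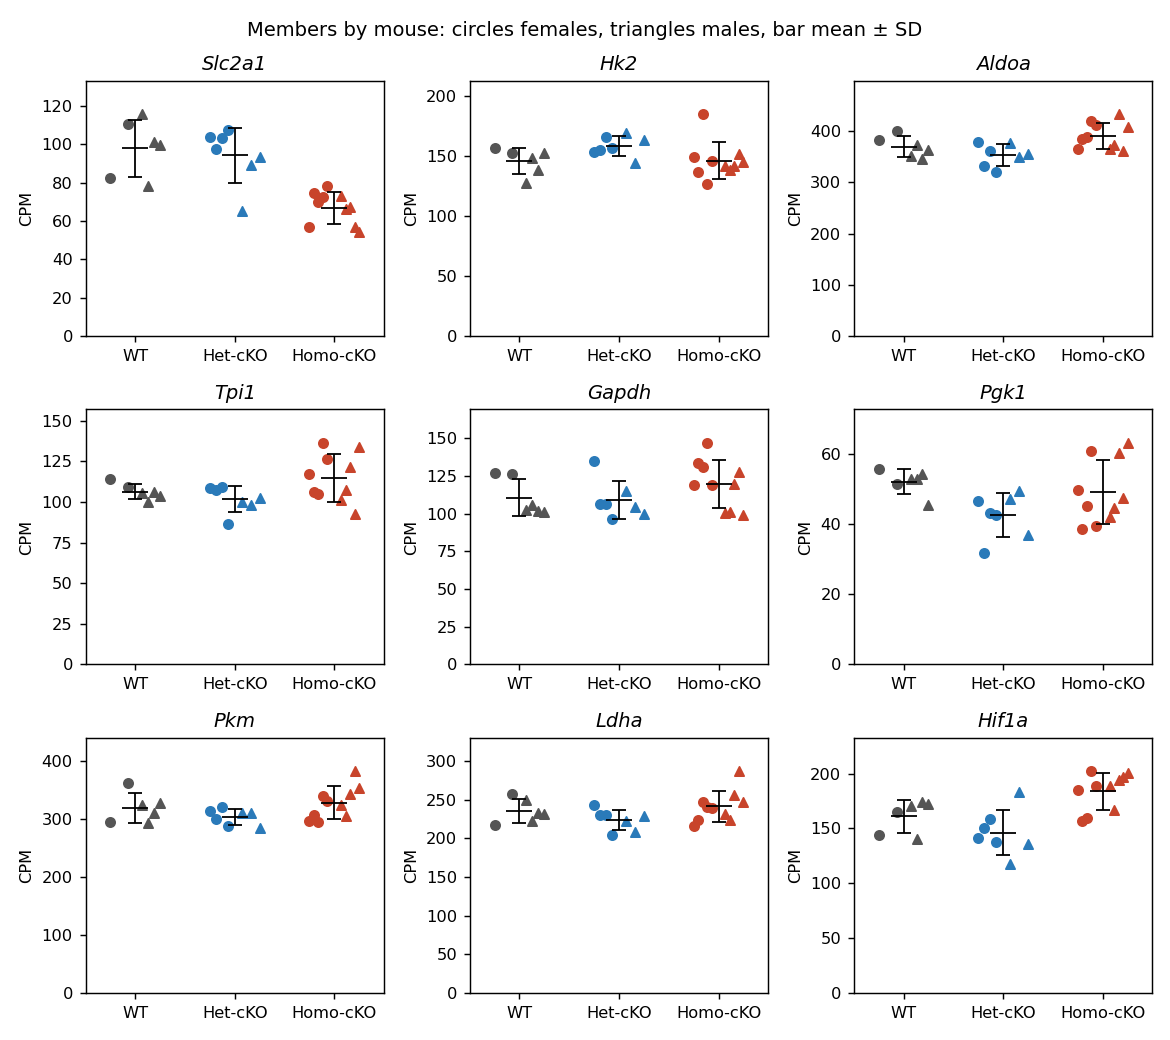
Level of the 9 genes with counts in each of the 23 mice, in CPM (vertical axes, each from 0), by genotype (horizontal axes), with circles for females, triangles for males and black bars for the mean ± SD. For Slc2a1 all 10 Homo-cKO points lie below the 6 WT points, for Hif1a 7 of the 10 lie above every WT and Het-cKO point, and for the enzymes the genotypes overlap.

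Hif1a codes for the oxygen-regulated subunit of HIF-1 and lies at chr12:73901375-73947530 on the plus strand. It was at 140 to 175 CPM in WT (median 168), 118 to 183 CPM in Het-cKO (median 141) and 157 to 202 CPM in Homo-cKO (median 189). Of the Homo-cKO mice, 7 exceeded every WT and every Het-cKO mouse and the other 3 lay within the WT range. Against Het-cKO, Hif1a rose by 0.33 on the log2 scale (SE 0.08, 95% CI 0.16 to 0.49, adjusted p = 0.0044, edgeR). Against WT the log2 difference was 0.20 (SE 0.08, 95% CI 0.03 to 0.37), with an unadjusted p of 0.022 in edgeR and an adjusted p of 0.11, and did not pass. When libraries were scaled by their totals instead, it passed, at a log2 difference of 0.30 (adjusted p = 0.0095, edgeR), under a scaling that moved the median of all genes by 0.11 to the Homo-cKO side. Het-cKO differed from WT by -0.12 (SE 0.09, adjusted p = 0.77, edgeR). The 4 Homo-cKO mice with numbers starting with 04 stood at 189 to 202 CPM and the 6 starting with 03, which include those with high Fos, at 157 to 195 CPM.

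The kinase and the enzymes of the pathway came next, in the order of their steps. Hk2 codes for the inducible hexokinase that traps glucose as glucose 6-phosphate. It was at 146 ± 10.9 CPM in WT (SD, n = 6), 159 ± 8.56 in Het-cKO (SD, n = 7) and 146 ± 15.3 in Homo-cKO (SD, n = 10). Its log2 difference between Homo-cKO and WT was -0.01 (SE 0.07, 95% CI -0.14 to 0.13, adjusted p = 0.97, edgeR), so a change of more than about 1.1-fold in either direction lies outside the interval. One Homo-cKO female, F3, stood at 185 CPM, and the other 9 were at 127 to 152 CPM. Of the 10 Homo-cKO mice, 5 lay below all Het-cKO mice, and the log2 difference from Het-cKO was -0.11 (SE 0.06, adjusted p = 0.21, edgeR). Without F3 that difference was -0.16 and passed (adjusted p = 0.040, edgeR).

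Aldoa codes for the enzyme that cleaves fructose 1,6-bisphosphate. It was at 347 to 401 CPM in WT (median 368), 321 to 378 in Het-cKO (median 356) and 361 to 433 in Homo-cKO (median 387). All 10 Homo-cKO mice exceeded the Het-cKO median, and 6 of them exceeded every Het-cKO mouse. Against Het-cKO it rose by 0.15 on the log2 scale, or 1.11-fold (SE 0.05, adjusted p = 0.047, edgeR). That call was narrow: leaving out a single mouse ended it in 11 of 23 cases. The mice were Het-cKO F2, F3, F4, M3 and M4 and Homo-cKO F2, F3, F4, F5, M3 and M5, and the adjusted p without them was 0.050 to 0.10. Against WT the log2 difference was 0.08 (SE 0.06, adjusted p = 0.40, edgeR). Tpi1, which interconverts the 2 triose phosphates, was at 115 ± 14.6 CPM in Homo-cKO (SD, n = 10), 102 ± 7.97 in Het-cKO (SD, n = 7) and 106 ± 4.81 in WT (SD, n = 6). Its levels in Homo-cKO spread from 92.4 to 136 CPM, around and beyond both other groups. Its log2 difference was 0.18 against Het-cKO (SE 0.07, adjusted p = 0.068, edgeR) and 0.10 against WT (SE 0.07, adjusted p = 0.44, edgeR). Against Het-cKO it passed without Homo-cKO F3 (adjusted p = 0.047, edgeR) or M4 (adjusted p = 0.030, edgeR).

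Pkm codes for pyruvate kinase of the M type, which makes pyruvate, and Ldha for the lactate dehydrogenase subunit that favours lactate. Pkm was at 318 ± 25.3 CPM in WT (SD, n = 6), 304 ± 13.5 in Het-cKO (SD, n = 7) and 327 ± 28.2 in Homo-cKO (SD, n = 10). Ldha was at 235 ± 15.5, 223.6 ± 13.3 and 241 ± 20.4 CPM in the same groups. Neither passed against WT, with log2 differences of 0.05 (95% CI -0.08 to 0.17) for Pkm and 0.04 (95% CI -0.09 to 0.17) for Ldha. Within Homo-cKO, the mice with numbers starting with 04 were at 331 to 382 CPM for Pkm and those starting with 03 at 294 to 343 CPM. With the latter 6 alone the difference from WT turned slightly negative for both genes.

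**Figure D2:**
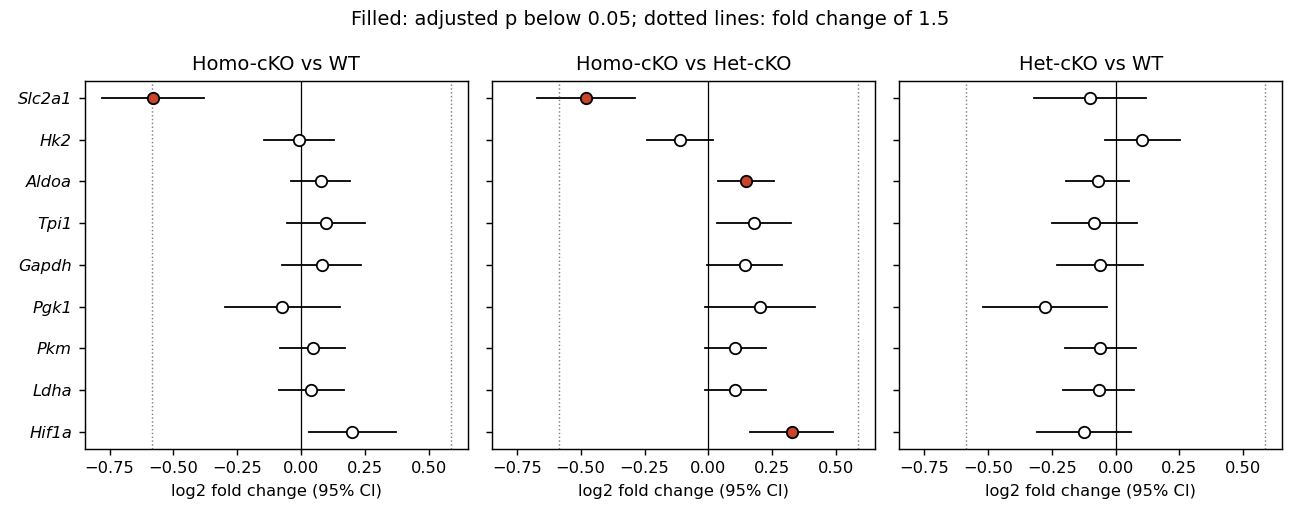
Log2 fold change of the 9 genes in the 3 comparisons, with the 95% confidence interval of the edgeR fit as a horizontal line, filled points for an adjusted p below 0.05 and dotted lines at a fold change of 1.5. Slc2a1 is filled in both comparisons of Homo-cKO mice, at -0.58 and -0.48, Hif1a and Aldoa are filled against Het-cKO only, and no point is filled for Het-cKO against WT.

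Counted over the genes, 1 of the 9 tested passed between Homo-cKO and WT, Slc2a1, against 12.7% of the 12908 genes tested. None of the 9 rose, against 5.66% of all genes, and 1 fell, against 7.09%. None had an adjusted p below 0.05 together with a fold change above 1.5, against 3.40% of all genes. Between Homo-cKO and Het-cKO, 3 of the 9 passed, against 22.7% of all genes: Hif1a and Aldoa rose, against 11.1%, and Slc2a1 fell, against 11.7%. None had a fold change above 1.5 as well, against 6.62%. The 2 comparisons share the Homo-cKO mice. The median log2 fold change of the 9 genes was 0.05 against WT, where that of all genes was 0.01, and 0.14 against Het-cKO, where that of all genes was 0.00. Between Het-cKO and WT none of the 9 passed, against 0% of all genes, and 998 of the 12908 genes, Pgk1 alone among the 9, had an unadjusted p below 0.05 in edgeR. DESeq2 called 3 genes in that comparison, none of them among the 9, and limma-voom called none.

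Gapdh and Pgk1, which catalyse successive steps of the lower part of the pathway, needed their copies to be read with them, because short reads cannot always be placed between a gene and its processed copies. For Gapdh, 28.0% of the distinct 25-base sequences of its transcripts also occur in other genes, and 48 genes have over 50% of their own 25-base sequences in Gapdh. Those copies held 9.005% of the counts of Gapdh and copies together, and most of that was Gm13394 on chromosome 2. For Pgk1 the share of 25-base sequences found elsewhere was 55.2%. Every 25-base sequence of 2 copies, Pgk1-rs7 on chromosome 12 and Gm5537 on chromosome 3, occurs in Pgk1, and they held 24.6% of the joint counts.

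Pgk1 itself was at 45.5 to 55.8 CPM in WT, 31.8 to 49.6 CPM in Het-cKO and 38.5 to 63.2 CPM in Homo-cKO. The Homo-cKO mice fell on both sides of the WT range, 5 below it and 3 above it. Its log2 difference was -0.07 between Homo-cKO and WT (SE 0.11, adjusted p = 0.72, edgeR) and -0.28 between Het-cKO and WT (SE 0.12, unadjusted p = 0.028, adjusted p = 0.60, edgeR). The share of Pgk1-rs7 in the counts of the pair ranged from 7.43% to 46.8% between mice, with 46.8% in a Het-cKO mouse. With the copies added, the sum was 58.7 to 70.2 CPM in WT, 52.5 to 68.0 CPM in Het-cKO and 56.5 to 76.6 CPM in Homo-cKO, and the log2 differences from WT were -0.02 for Homo-cKO and -0.17 for Het-cKO. The spread of Pgk1 between mice is therefore uncertain.

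Gapdh was at 111 ± 12.4 CPM in WT (SD, n = 6), 109 ± 12.9 in Het-cKO (SD, n = 7) and 120 ± 15.8 in Homo-cKO (SD, n = 10). Its log2 difference was 0.08 between Homo-cKO and WT (SE 0.08, adjusted p = 0.54, edgeR) and 0.14 between Homo-cKO and Het-cKO (SE 0.07, adjusted p = 0.16, edgeR). Gm13394 was at 8.61 to 10.7 CPM in WT and 8.34 to 12.3 CPM in Het-cKO. Among the Homo-cKO mice it was at 0.0753 to 0.366 CPM in F1, F2, F3 and F4 and at 8.93 to 22.6 CPM in the other 6. Gapdh itself was at 119 to 147 CPM in those 4 females and at 99.3 to 127 CPM in the other 6. With the copies added, Gapdh was at 113 to 140 CPM in WT, 107 to 149 CPM in Het-cKO and 111 to 150 CPM in Homo-cKO.

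Eno1, the main enolase, was not among the 10 genes but gave the same difficulty. It was at 333.3 to 401 CPM in WT and 316 to 376 CPM in Het-cKO. In Homo-cKO it was at 511 to 597 CPM in 7 mice and at 299 to 398 CPM in F1, F3 and F4. Eno1b, 83.5% of whose 25-base sequences occur in Eno1, was at 71.8 to 119 CPM in WT and Het-cKO, at 69.8 to 88.3 CPM in those 3 Homo-cKO females, and at 0 to 0.740 CPM in the 7 mice with high Eno1. Eno1 rose against WT by 0.45 on the log2 scale (SE 0.11, adjusted p = 0.0097, edgeR). With Eno1b added the log2 difference was 0.18 (SE 0.08, adjusted p = 0.14, edgeR) and did not pass. The sum was 416 to 491 CPM in WT and 404 to 458 CPM in Het-cKO. In Homo-cKO it was 511 to 598 CPM in the 7 mice with high Eno1, above every WT and Het-cKO mouse. In F1, F3 and F4 it was 368 to 487 CPM.

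**Figure D3:**
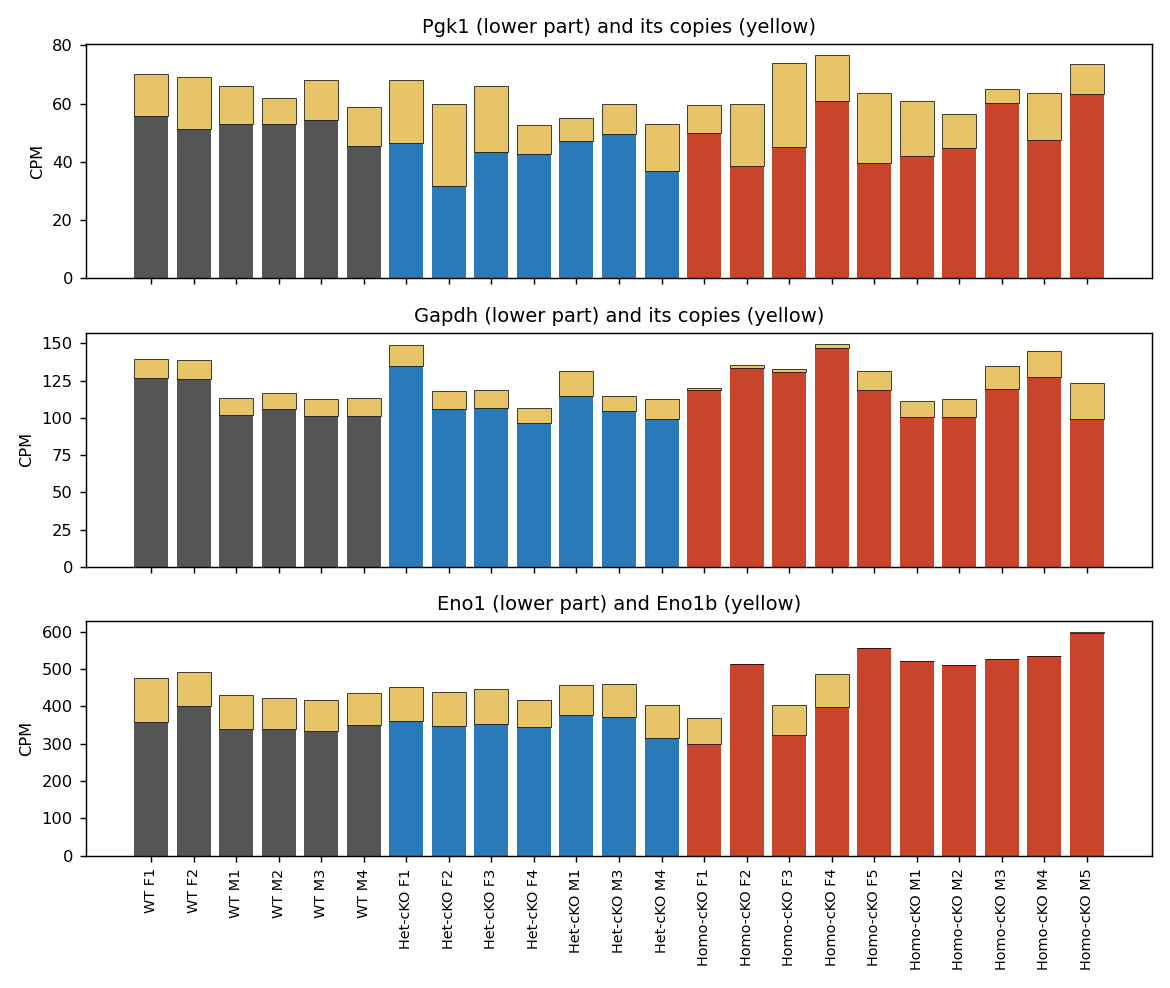
Level in CPM (vertical axes, from 0) of Pgk1, Gapdh and Eno1 in each mouse (horizontal axis), with the level of their copies, for Eno1 that of Eno1b, stacked on top in yellow; WT mice are grey, Het-cKO blue and Homo-cKO red. The yellow part is nearly absent for Gapdh in 4 Homo-cKO females and for Eno1 in 7 Homo-cKO mice, where the lower part of Eno1 is at 511 to 597 CPM.

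Pfkfb3 codes for the kinase that makes fructose 2,6-bisphosphate, the strongest activator of phosphofructokinase, and lies at chr2:11471433-11554077 on the minus strand. It was listed at 0 in all 23 mice. It lies within a stretch of 417 consecutive genes of the table that were all listed at 0, from chr2:3065573 to position 22940266, 91 of them protein-coding. That stretch also holds genes that most cells use, such as Vim, Rbm17 and Rsu1, so nothing about Pfkfb3 expression can be read from this 0. A second stretch of 392 genes on chromosome 1 held Pfkfb2, another gene of the same family, also listed at 0. Of the rest of the family, Pfkfb1 and Pfkfb4 passed the filter on low counts, Pfkfb4 at 64.1 CPM as the median in WT, 60.3 in Het-cKO and 74.3 in Homo-cKO. Of the lists below, the stretch of Pfkfb3 also holds the border macrophage marker Mrc1. The stretch of Pfkfb2 holds the HIF target gene Insig2 and the immediate-early gene Btg2, so these could not be read either.

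**Figure D4:**
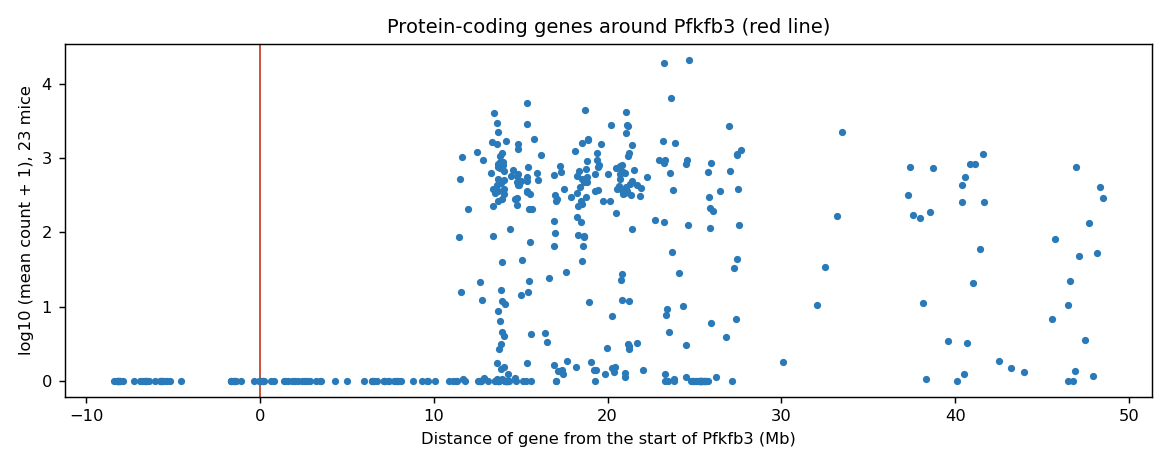
Mean count over the 23 mice, as log10 of the count plus 1 (vertical axis), of each protein-coding gene by its distance in Mb from the start of Pfkfb3 (horizontal axis, red line). All points left of the red line and those up to about 11 Mb to its right lie at 0, and counts begin beyond.

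The other genes of the pathway were read in lists. Of 21 other glycolytic enzymes, 15 were tested between Homo-cKO and WT, of which 1 rose, against 5.66% of all genes, 5 fell, against 7.09%, and 9 did not pass, with a median log2 fold change of -0.19. The gene that rose was Eno1, and those that fell were Eno1b, Pfkm, Aldoc, Eno2 and Hk1. Eno1 and Eno1b are both counted here, although their sum did not pass. Without the 4 mice with high Fos, where 1062 of 12735 genes passed, 1 rose and 4 fell, Eno1b no longer among them. Pfkm, the muscle-type phosphofructokinase, was at 7.58 to 11.1 CPM in WT and fell to 5.37 to 7.25 CPM in Homo-cKO (log2 fold change -0.64, SE 0.14, adjusted p = 0.0033, edgeR). Aldoc (-1.61, SE 0.37, adjusted p = 0.0062, edgeR) and Eno2 (-1.87, SE 0.48, adjusted p = 0.012, edgeR), the aldolase and enolase forms known from astrocytes and neurons, fell from low levels, medians of 5.49 and 2.74 CPM in WT to 2.16 and 0.656 CPM in Homo-cKO. Neuronal markers moved in the same direction. Their summed level over 10 genes was 12.1 to 38.4 CPM in WT, 14.01 to 32.8 in Het-cKO and 4.29 to 9.27 CPM in Homo-cKO. Of the 6 tested, 4 fell, Snap25, Nrgn, Gad1 and Nefl, against 7.09% of all genes. Gad1 and Nefl did not pass without the 4 mice with high Fos. Astrocyte markers summed to 231 to 266 CPM in WT and 228 to 309 CPM in Homo-cKO, nearly all of it Slc1a3. The part of these cells in the fall of Aldoc and Eno2 was not tested.

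Among 14 genes of glucose and lactate transport and of glycolytic control, 13 were tested against WT, 2 fell, against 7.09% of all genes, none rose, against 5.66%, and the median log2 fold change was 0.03. Bsg codes for basigin, the chaperone that brings lactate transporters to the membrane. It was at 560 to 685 CPM in WT, 536 to 657 in Het-cKO and 448 to 551 in Homo-cKO (log2 fold change against WT -0.31, SE 0.06, adjusted p = 0.0012, edgeR). Slc2a8, the intracellular transporter GLUT8, was at 130 ± 21.9 CPM in WT (SD, n = 6) and 91.8 ± 11.7 CPM in Homo-cKO (SD, n = 10), a log2 fold change of -0.49 (SE 0.09, adjusted p = 0.0015, edgeR). Both also fell against Het-cKO, where 22.7% of all genes passed and 2 other genes of the list, Pfkfb4 and Txnip, rose. Without the 4 mice with high Fos, Bsg and Slc2a8 still fell against both groups. Pfkfb4 and Txnip did not pass against Het-cKO in that fit, where 1898 of 12735 genes did. The fructose transporter gene Slc2a5, a microglial gene, was by far the most abundant transporter by counts, with a median of 1054 CPM in WT and 1076 CPM in Homo-cKO. The lactate transporter genes Slc16a1, Slc16a3 and Slc16a7 had log2 differences from WT of -0.05, 0.03 and 0.08 and did not pass.

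Of 13 HIF subunits and oxygen-sensing regulators, 11 were tested and none passed against WT, against 12.7% of all genes, with a median log2 fold change of -0.01. Cited2, a HIF-induced competitor for the coactivator p300, was closest at 69.0 ± 7.71 CPM in WT (SD, n = 6) and 88.9 ± 25.8 in Homo-cKO (SD, n = 10), a log2 difference of 0.36 (SE 0.14, adjusted p = 0.099, edgeR). Arnt, the partner of HIF-1 alpha, was at 70.4 ± 3.98 and 79.0 ± 6.37 CPM, a log2 difference of 0.16 (SE 0.07, adjusted p = 0.11, edgeR). Against Het-cKO, Cited2 and Egln3 rose and Ep300 fell, 3 of the 11, against 22.7% of all genes. Without the 4 mice with high Fos, 10 genes of the list were tested and only Ep300 passed, where 1898 of 12735 genes did. Of 25 HIF target genes outside glycolysis, 18 were tested, and 1 rose, against 5.66% of all genes, and none fell against WT, against 7.09%, with a median of 0.04. The one that rose was Bnip3, a mitophagy receptor. It was at 45.8 to 56.1 CPM in WT, 29.6 to 51.7 in Het-cKO and 52.8 to 79.8 in Homo-cKO, and rose by 0.34 on the log2 scale against WT (SE 0.10, adjusted p = 0.029, edgeR) and by 0.70 against Het-cKO (SE 0.10, adjusted p = 4.02e-05, edgeR). Without the 4 mice with high Fos it did not pass against WT, where 1062 of 12735 genes did, at a log2 difference of 0.32 (adjusted p = 0.095, edgeR). It passed against Het-cKO in that fit. Vegfa, a classic HIF target, was near the limit of detection, with medians of 1.87 CPM in WT and 1.38 CPM in Homo-cKO. Against Het-cKO 3 of the 18 rose, Bnip3, Fam162a and Hmox1, and 2 fell, Ndrg1 and Ddit4, so that 5 of the 18 passed, against 22.7% of all genes. Without the 4 mice with high Fos 3 passed, Bnip3, Ndrg1 and Ddit4, where 1898 of 12735 genes did.

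Downstream of glycolysis, 29 of 30 genes of pyruvate entry and the tricarboxylic acid cycle were tested. Against WT, 1 rose and none fell, with a median log2 fold change of 0.01, where 12.7% of all genes passed. Against Het-cKO 4 rose, Mpc1, Pdha1, Pdhb and Pdk1, and none fell, with a median of 0.06, where 22.7% of all genes passed. The gene that rose against WT was Mpc1, a subunit of the carrier that brings pyruvate into the mitochondrion. It was at 127 to 171 CPM in WT, 114 to 137 in Het-cKO and 144 to 232.5 in Homo-cKO (log2 fold change against WT 0.35, SE 0.10, adjusted p = 0.018, edgeR), and it passed without the 4 mice with high Fos (0.33, adjusted p = 0.048, edgeR). None of the 8 genes of the pentose phosphate pathway passed against either group, and without the 4 mice with high Fos 1 did against Het-cKO, G6pdx, which rose. The closest against WT was Tkt, transketolase, at 136 ± 8.98 CPM in WT (SD, n = 6) and 118 ± 12.1 in Homo-cKO (SD, n = 10), with a log2 difference of -0.22 (SE 0.08, adjusted p = 0.058, edgeR). The next was Rpe, ribulose-phosphate epimerase, with a log2 difference of 0.20 (SE 0.11, adjusted p = 0.25, edgeR). None of the genes of these 6 lists or of the 10 passed between Het-cKO and WT.

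**Figure D5:**
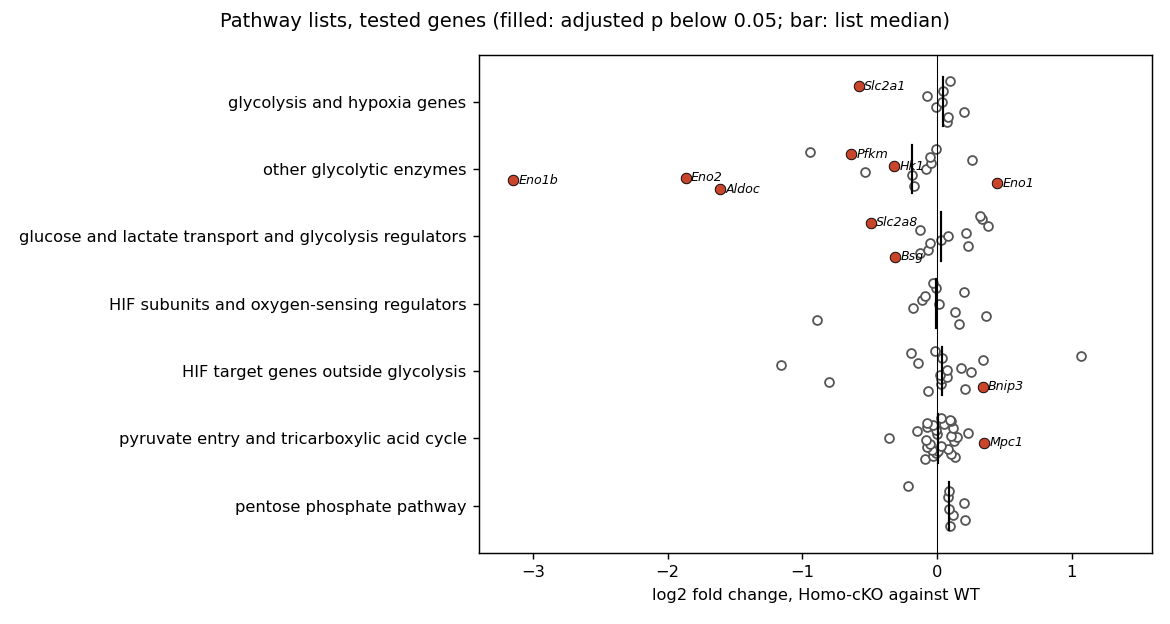
Log2 fold change between Homo-cKO and WT (horizontal axis) of every tested gene of the 10 and of the 6 other pathway lists (rows), with filled, named points for an adjusted p below 0.05 and a black bar at the median of each list. Most points of each list lie close to 0, Slc2a1 is the filled point of the top row at -0.58, and Eno1b is farthest left at -3.15.

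For comparison, genes of the inflammatory response had larger fold changes in the same libraries, and these were smaller without the 4 Homo-cKO mice with high Fos. Those mice were set apart by their Fos level, and Fos is itself one of the immediate-early genes. The smaller values of that list without them therefore follow in part from the choice of mice. Of 10 immediate-early genes tested, 9 rose against WT, against 5.66% of all genes. Among them were Egr1, Fos, Ier2 and Atf3, and the median log2 fold change of the list was 3.36. Without those 4 mice, where 1062 of 12735 genes passed, 5 rose, Atf3, Jun, Zfp36, Ier2 and Egr1. The median was then 0.61, with Fos itself at a log2 difference of 1.44 (adjusted p = 0.17, edgeR). Of 9 cytokine and chemokine genes, 8 rose, against 5.66% of all genes, among them Il1a, Ccl2, Ccl3 and Ccl7, with a median of 1.86. Without the 4 mice 7 rose, Tnf no longer among them, with a median of 1.01. Of the 10 microglial markers 5 fell, against 7.09% of all genes, among them Cx3cr1, Tmem119, Csf1r and P2ry12. None rose, and the list had a median of -0.23. Of tested red blood cell, border macrophage and oligodendrocyte markers, 0 of 4, 0 of 5 and 2 of 6 passed. Of all genes, 12.7% did. The 2 were Mbp and Mobp, which fell and did not pass without the 4 mice. The border macrophage gene F13a1 rose in that fit. Mrc1, another border macrophage marker, was listed at 0 within the stretch of Pfkfb3 and could not be read. Among monocyte and neutrophil markers 1 of 6 passed, against 12.7% of all genes. It was the chemokine receptor gene Ccr2, which rose by 1.28 on the log2 scale. The list summed to 4.71 to 32.4 CPM in WT and 12.6 to 75.1 CPM in Homo-cKO. Their part in the levels of the 10 genes was not tested.

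Within genotypes, the enzyme genes varied together to some degree. After genotype and sex means were taken out, the 15 pairs among Ldha, Pkm, Gapdh, Pgk1, Tpi1 and Aldoa had correlations of log2 CPM of 0.08 to 0.75 over the 23 mice, with a median of 0.35. Slc2a1 and Hk2 did not follow them, with medians of -0.13 and -0.07 over the same 6 genes, while Hif1a had a median of 0.26. The genes most like the mean of the 9 were Phgdh, the first enzyme of serine synthesis from a glycolytic intermediate (r = 0.80), Atp5b, a subunit of ATP synthase (r = 0.79), Ykt6 (r = 0.75), Mrps2 (r = 0.74) and Plpp1 (r = 0.74). These values are descriptions over 23 libraries that share depth and RNA quality within each mouse.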

How the data were processed

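Microglial RNA of single mice was sequenced with single-end reads from SMARTer cDNA. The authors aligned the reads with OmicSoft OSA4 to mm10 with an Ensembl gene model and deposited expected counts per gene estimated with RSEM. They removed 2 libraries, which are not analysed here. The deposited expected counts were rounded (82.2% were whole). Symbols and coordinates came from GENCODE M21 (GRCm38).

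Genes were filtered with filterByExpr, scaled by TMM and tested with edgeR 4.0.16 in R 4.3.3 (quasi-likelihood, genotype and sex as terms, all 23 mice, Benjamini-Hochberg over 12908 genes). The code was tested on simulated data. A gene passed at an adjusted p below 0.05. Alternatives were DESeq2 1.42.0, limma-voom 3.58.1, other scalings, filters and sets of mice. The members and lists were chosen with earlier results of these data known. Named were all members and, from each other list, genes that passed against WT (at most the 4 with the smallest p, or the 2 closest where none passed), and the other genes named were chosen after their values were seen. Intervals and p-values cover the spread between mice of these groups.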

Additional observations from a re-analysis of the deposited data

Results flagged for a closer look

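Of the 27 sets of values tested for a mouse that stands apart (9 genes in 3 genotypes), 1 had such a mouse, and chance gives about 1 in 20. Hk2, the inducible hexokinase, was at 185 CPM in the Homo-cKO female F3, whose nearest neighbour was at 152 CPM. That gap took 0.570 of the whole range of the 10 Homo-cKO mice.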

How the results depend on the processing

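Slc2a1 passed between Homo-cKO and WT under all 36 alternatives (log2 fold change -0.66 to -0.48, adjusted p 2.61e-06 to 0.0052) and between Homo-cKO and Het-cKO under all 36 (-0.55 to -0.41). Hif1a passed against Het-cKO under all 36 (0.25 to 0.43). With one mouse left out, 1 of the genes passed against WT in every case, 2 to 4 against Het-cKO, and 0 between Het-cKO and WT. With library totals, 2 passed against WT (Slc2a1 and Hif1a) and 6 against Het-cKO (Slc2a1, Ldha, Pkm, Tpi1, Aldoa and Hif1a), under a scaling that moved the median of all genes by 0.11 and 0.06. Under the main settings, asking for a fold change above 1.5 (0.585 on the log2 scale) left 0 of the genes in each comparison. Slc2a1 against WT went beyond that threshold under some alternatives, down to -0.66 with one mouse left out and -0.64 among the others. Whether it reached a fold change of 1.5 thus depended on the processing. Signs turned only for values near 0 between Homo-cKO and WT. Hk2 was 0.091 with library totals, 0.00092 without the sex term, 0.013 with numbers starting with 03, 0.022 without the mice with high Fos, and -0.043 to 0.015 with one mouse left out, above 0 without Homo-cKO F2, F4 or M2 or WT F1, M2 or M4. With numbers starting with 03, Ldha was -0.015 and Pkm -0.029. Pgk1 was 0.025 with library totals, 0.028 with numbers starting with 04 and 0.031 without the mice with high Fos. The last alternative, for the other lists too, and the sum of Eno1 with Eno1b were chosen after seeing the data. Aldoa against Het-cKO also lost its call without a filter (adjusted p = 0.11, edgeR), with the upper quartile (0.051), with the compared groups alone (0.056) and with either range of animal numbers (0.17 and 0.088). The causes were not tested. No paired analysis was possible because the labels give animal numbers that no groups share.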

Other observations

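Among glycolytic genes and their copies, 3 were spread far more widely in Homo-cKO than in the other groups, and these were chosen after their values were seen. Ldhb, the lactate dehydrogenase subunit of oxidative tissues, was at 355 to 446 CPM in WT and 310 to 420 CPM in Het-cKO, but in Homo-cKO at 23.7 CPM in F4, 279 to 364 CPM in M2, M3 and M5, and 549 to 688 CPM in the other 6. Eno1b was at or below 0.740 CPM in 7 Homo-cKO mice and at 69.8 to 88.3 CPM in 3. Gm13394 was at or below 0.366 CPM in 4 Homo-cKO mice and at 8.93 to 22.6 CPM in 6. The mice at the low end were not the same for the 3 genes. The log2 difference of Ldhb between Homo-cKO and WT was 0.26 (SE 0.34, adjusted p = 0.68, edgeR).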
